A study of Mus musculus with 12 samples.

Results

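Bdnf and Ntrk2 encode a growth factor and its receptor. The RNA modification N6-methyladenosine (m6A) was mapped over both genes in mouse hippocampus at 2 ages. A gene's peaks were those of the 4 deposited lists that overlapped its window on the mouse build mm9: chromosome 2 from 109514500 to 109567600 for Bdnf, and chromosome 13 from 58907500 to 59236000 for Ntrk2. They numbered 49 of 148097 peaks, 17 on Bdnf and 32 on Ntrk2. Peaks that shared at least 1 bp in any of the lists were joined into regions, which gave 6 Bdnf and 11 Ntrk2 regions of 70674 in all, numbered here from the start of each window. Both genes lie on the plus strand in RefSeq, so the higher numbers are toward the 3′ end. No peak of any list lay within 50 kb outside either window.

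The study concerned FTO, an enzyme that can remove m6A, in adult neurogenesis, and the BDNF pathway was among those it followed. The lists came from wild-type C57BL/6 males aged 2 weeks or 6 weeks, with 2 m6A immunoprecipitation (m6A-IP) libraries per age. In m6A-IP, fragments of poly(A)+ RNA are pulled down with an antibody against m6A, sequenced, and compared with a control. The lists do not name their control libraries; the control tags, normally from fragments not pulled down, are also called input below. The labels call the libraries of an age biological replicates and name no animals, so p-values measure the spread between these samples. The other 8 samples, which include Fto knockout animals of 8 to 12 weeks and their wild-type controls, were not used. The values below thus show where m6A peaks lay over these genes in wild-type tissue and do not address the loss of FTO. Each list prints the same strand for all its peaks, so no peak was assigned to a strand. The labelled tissue was not checked against marker genes, because no gene positions of build mm9 were used.

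BDNF (brain-derived neurotrophic factor) is a secreted neurotrophin that supports the survival, growth and plasticity of hippocampal neurons. It binds TrkB, the receptor tyrosine kinase encoded by Ntrk2, which signals through the MAP kinase, PI3 kinase and phospholipase C gamma routes. Bdnf has several alternative first exons, each with its own promoter, spliced to a shared exon at the 3′ end that holds the whole protein-coding sequence and the 3′ untranslated region. Ntrk2 is a much longer gene that yields the full-length receptor and truncated forms without the kinase domain. In messenger RNAs generally, m6A is often found near stop codons and in long exons. Whether each region below was exonic, intronic or untranslated was not determined, for want of an annotation of this build.

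The IP libraries held 23.4 and 23.0 M tags at 2 weeks (replicates 1 and 2; 10 M is 10000000 tags; totals worked out from the scaled columns) and 16.1 and 16.5 M at 6 weeks, and their controls, in the same order, held 29.3, 16.8, 15.8 and 11.7 M. Values are given as sequence tags in a peak per 10 M tags of the library, and enrichment as the ratio of IP to control on that scale. Median peaks of the lists held 15.4 to 23.6 IP tags per 10 M and were enriched 5.97-fold to 7.33-fold over control, in the authors' values. With 2 libraries against 2, an exact two-sided test of single values cannot give a p under 0.333.

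Bdnf, the ligand gene, had its shared m6A regions in a short cluster near the 3′ end of the window in all 4 libraries. Regions 2, 3 and 4 were called in every library and together held 91.4% to 100% of the IP tags in Bdnf peaks. They spanned chromosome 2 from 109563653 to 109563761, from 109563965 to 109564113 and from 109564159 to 109564262, and ended 3.84, 3.49 and 3.34 kb before the end of the window. Their centres lay 332 and 171.5 bp apart, and the starts of region 2 differed by at most 8 bp between libraries. These 3 regions of 6 compare with 14.4% of all regions called in every library. Among the 17 regions on both genes, 0 had calls in both 2-week and neither 6-week library and 0 showed the opposite, beside 6.41% and 1.92% of all regions.

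Bdnf region 2 held 445 and 427 IP tags per 10 M at 2 weeks and 766 and 196 at 6 weeks. The 2-week libraries were close to each other, and the 6-week libraries lay on either side of them. The highest value, in 6-week replicate 1, came from 1236 tags, and the lowest, in 6-week replicate 2, from 323. The region ranked 621 of 39259 and 816 of 39105 peaks by IP tags in the 2-week lists, and 275 of 33239 and 1075 of 36494 in the 6-week lists. In each list it thus exceeded at least 97% of peaks. Control tags were 39.9 and 36.8 per 10 M at 2 weeks and 35.5 and 20.5 at 6 weeks. Both 6-week values lay below both 2-week values. On this scale the median region of the fit below also changed by a log2 of -0.53. At 2 weeks the enrichment was 11.2-fold and 11.6-fold (mean 11.4 ± 0.317, SD, n = 2) and 21.6-fold and 9.55-fold at 6 weeks (15.6 ± 8.53, SD, n = 2).

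Region 4, the last of the cluster, held 221 and 267 IP tags per 10 M at 2 weeks and 247 and 98.1 at 6 weeks. Control tags were 29.0 and 23.2 at 2 weeks and 20.3 and 14.5 at 6 weeks. The IP values of the ages overlapped. The control values did not, on a scale where the median region of the fit below also changed by a log2 of -0.53. Enrichment was 7.62-fold and 11.5-fold at 2 weeks (9.57 ± 2.76, SD, n = 2) and 12.2-fold and 6.76-fold at 6 weeks (9.48 ± 3.85, SD, n = 2), a difference between ages far inside the spread of either.

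Region 3 lay between them and had 439 and 311 IP tags per 10 M at 2 weeks and 142 in 6-week replicate 2, with 33.8, 32.7 and 19.6 control tags. Its list of 6-week replicate 1 printed 2 peaks at the same start, with 602 and 209 IP tags and 43.1 and 22.8 control tags per 10 M, that is 2 counts for 1 printed interval. Such repeats of an earlier start made up 1.92% to 2.69% of each list. The 2-week peaks were enriched 13-fold and 9.52-fold, the repeated peaks of 6-week replicate 1 were enriched 14.0-fold and 9.16-fold, and that of 6-week replicate 2 was enriched 7.25-fold. With the higher of the repeated peaks, IP tags declined from region 2 through region 3 to region 4 in each of the 4 libraries. Control tags declined in that order in 3 of the 4, the exception being 6-week replicate 1.

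Signal on the rest of Bdnf was thin. Region 5, on chromosome 2 from 109564460 to 109564563 and 301 bp beyond region 4, was called in 2-week replicate 2 with 54 IP tags and 1 control tag and in 6-week replicate 2 with 41 and 8. Region 6, on chromosome 2 from 109565968 to 109566068, was called in 6-week replicate 2 alone with 27 IP tags and 3 control tags. Region 1, the sole region toward the start of the gene, began 0.634 kb into the window and was called in 2-week replicate 1 alone with 12 IP tags. Its control held 0 tags, which at a floor of 3 tags makes it at least 5.0-fold enriched. A library with no peak has no value in these lists, and an absent peak is not a count of 0.

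**Figure D1:**
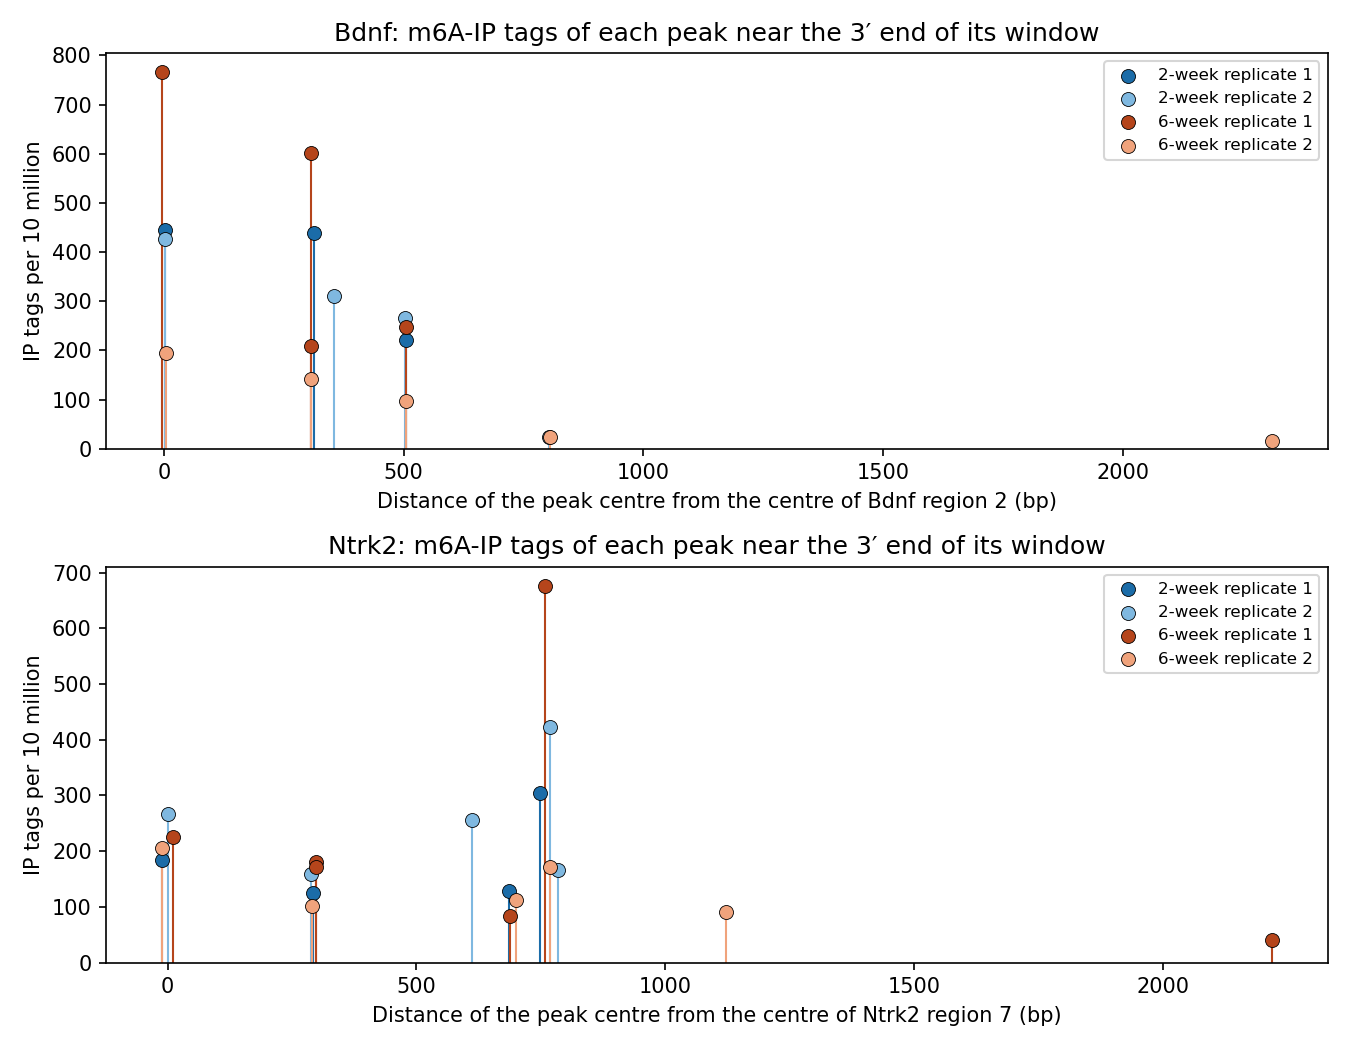
IP tags per 10 M (vertical axis) of each peak against the distance of its centre, in bp, from the centre of Bdnf region 2 (upper panel) or Ntrk2 region 7 (lower panel); each stem is 1 peak and colours mark the 4 libraries. Regions with peaks of all 4 libraries number 3 on Bdnf and 3 on Ntrk2, and Ntrk2 region 9 holds peaks at more than 1 position. Bdnf regions 5 and 6 and Ntrk2 regions 10 and 11, called in 1 or 2 libraries, are also plotted. The tallest stem of each panel is that of 6-week replicate 1, at 766 and 677.

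Ntrk2, the receptor gene, had its shared m6A regions at the corresponding end of a much longer window. Regions 7, 8 and 9 were called in every library, 3 of 11, and ended 6.10, 5.81 and 5.33 kb before the end of the window. They spanned chromosome 13 from 59229779 to 59229902, from 59230079 to 59230189 and from 59230402 to 59230675. They held 74.4% and 93.2% of the IP tags in Ntrk2 peaks at 2 weeks and 81.5% and 66.1% at 6 weeks. The remaining tags lay in regions called in 1 to 3 libraries.

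Ntrk2 region 7 was the steadiest of the shared regions. It held 184 and 267 IP tags per 10 M at 2 weeks and 224 and 205 at 6 weeks, the 6-week values lying between the 2-week values. Control tags were 25.9 and 33.3 at 2 weeks and 34.2 and 23.9 at 6 weeks. Enrichment was 7.11-fold and 8.02-fold at 2 weeks (7.57 ± 0.647, SD, n = 2) and 6.56-fold and 8.59-fold at 6 weeks (7.58 ± 1.43, SD, n = 2). The difference of the means was far smaller than the spread within either age.

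Region 9 held the highest Ntrk2 peak of 3 libraries, and there the 6-week libraries again lay on either side of the 2-week ones. Its strongest peak had 304 and 422 IP tags per 10 M at 2 weeks and 677 and 172 at 6 weeks, with starts between 59230538 and 59230559. That peak was enriched 13.1-fold and 12.1-fold in the 2-week libraries, 23.2-fold in 6-week replicate 1 and 4.38-fold in 6-week replicate 2. The region also held weaker peaks in every list, 5 in all, enriched 3.07-fold to 5.47-fold, some of them overlapping the strongest. In 6-week replicate 2 the highest Ntrk2 peak was that of region 7.

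At region 8 the enrichment of the ages did not overlap, whichever repeated peak was taken. Among the other shared regions this was so at Bdnf region 3 alone, in the opposite direction, and there only with the lower of its repeated peaks. It held 125 and 158 IP tags per 10 M at 2 weeks and 102 in 6-week replicate 2, while 6-week replicate 1 printed 2 peaks at the same start with 179.8 and 172. Control tags were 24.6 and 32.7 at 2 weeks, 15.8 and 17.1 for the repeated peaks of 6-week replicate 1, and 15.4 in 6-week replicate 2. The ratios were 5.09 and 4.84 in the 2-week libraries, 11.4 and 10.1 for the repeated peaks, and 6.66 in 6-week replicate 2. Both 6-week ratios exceeded both 2-week ratios in 19.6% of the 10203 regions called in every library when each list was represented by its peak with the most IP tags, so this order was common. IP tags of the ages overlapped, with 6-week replicate 1 above both 2-week libraries and 6-week replicate 2 below them. Control tags were lower in both 6-week libraries, as was the median region of the fit below (log2 change -0.53 on this scale).

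**Figure D2:**
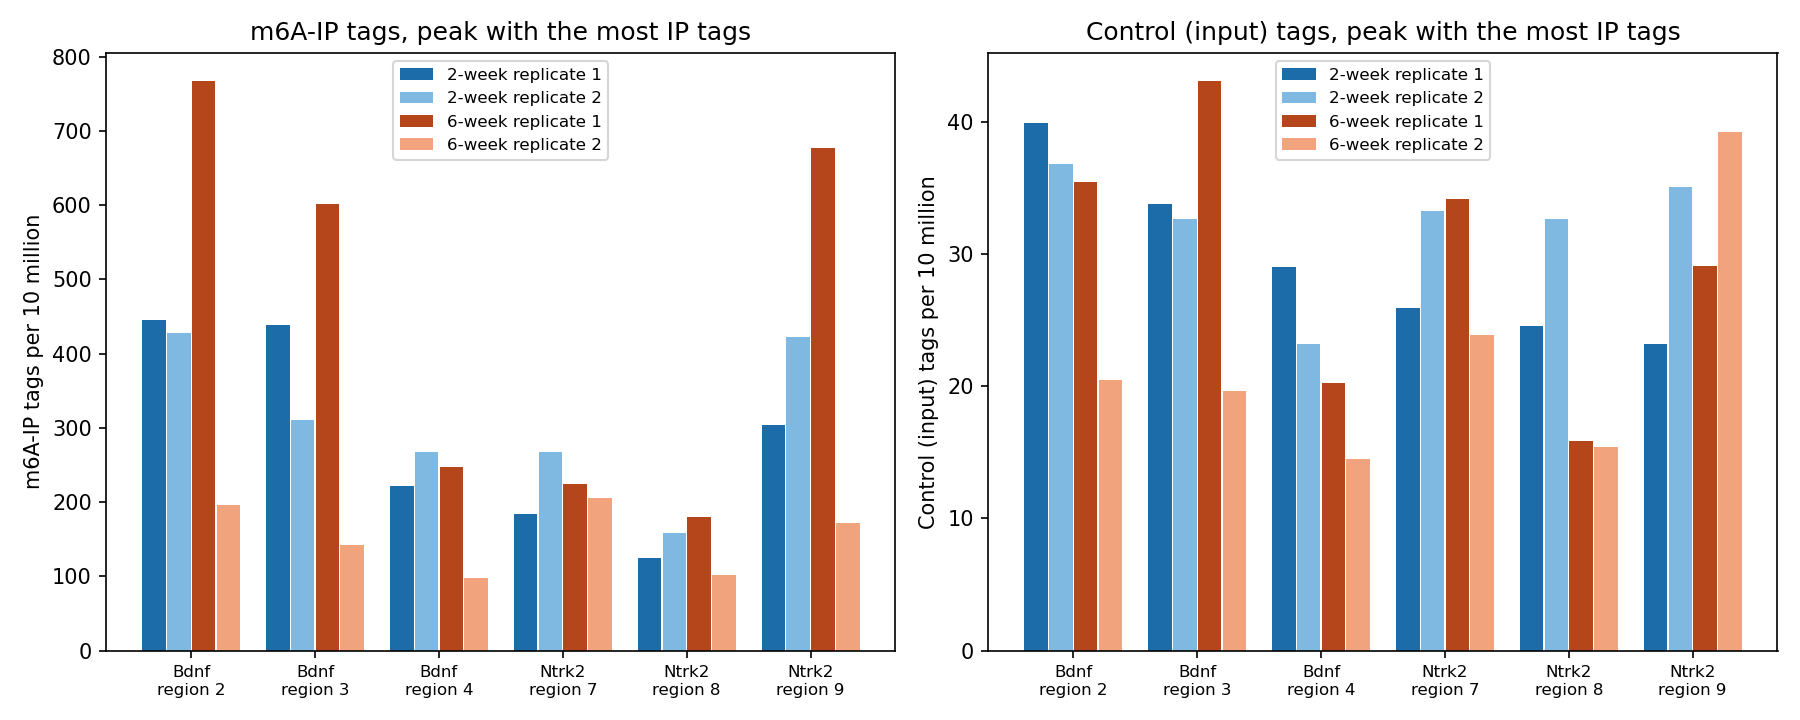
m6A-IP tags (left) and control tags (right) per 10 M in the 6 regions of Bdnf and Ntrk2 called in every library, 1 bar per library, taking the peak with the most IP tags where a list had several. 6-week replicate 1 exceeds 6-week replicate 2 in IP tags at all 6 regions, from 766 against 196 at Bdnf region 2 to 224 against 205 at Ntrk2 region 7.

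Of the other 8 Ntrk2 regions, 6 lay far from this end. Region 2, on chromosome 13 from 58909988 to 58910093 and 2.49 kb into the window, had 211 IP tags per 10 M in 2-week replicate 1 and 249 and 119 at 6 weeks, and no peak in 2-week replicate 2. With 46.4, 39.9 and 30.7 control tags it was enriched 4.54-fold, 6.23-fold and 3.88-fold. In 2-week replicate 1 its control tags were the highest of any Ntrk2 peak in that list. Region 1, 0.49 kb into the window, and region 3, from 58972917 to 58973017, were called in 2-week replicate 2 alone, with 20 and 9 IP tags.

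A group of regions stood about 202 to 200.4 kb before the end of the window. Region 4, from 59033843 to 59033966, had 104 IP tags in 2-week replicate 1, 127 in 2-week replicate 2 and 33 in 6-week replicate 2, or 44.4, 55.3 and 19.99 per 10 M. Its controls held 7, 0 and 0 tags. Enrichment was 18.6-fold in 2-week replicate 1, and, with the control set at a floor of 3 tags per library, at least 31.0-fold and at least 7.80-fold in the other two. The authors' fold of 186.2 in 2-week replicate 2 divides by 0.5 tag, the value that stands for no control tag. This floor covers counting error only. The highest authors' fold of all Ntrk2 peaks thus came from a peak with no control tag.

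Region 5 was centred 165 bp beyond region 4, from 59033999 to 59034140, and was called in 2-week replicate 2 and in both 6-week libraries, with 56, 22 and 26 IP tags and 4.56-fold, 3.59-fold and 9.22-fold enrichment. Region 6, from 59035523 to 59035623, was called in 6-week replicate 2 alone with 96 IP tags at 4.86-fold. Regions 10 and 11, beyond the shared cluster, were called in 1 library each, with 149 IP tags in 6-week replicate 2 and 65 in 6-week replicate 1. In all, 5 of the 11 Ntrk2 regions and 2 of the 6 Bdnf regions were called in a single library, beside 58.6% of all regions.

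The age comparison was fitted over 4577 regions, those where every list had a single peak, of which Bdnf regions 2 and 4 and Ntrk2 region 7 were members. Shares of all regions given with the fits refer to the regions tested. Each of these had a peak in every list, at an authors' fold of at least 3. Bdnf region 3 and Ntrk2 regions 8 and 9 had more than 1 peak in some list. Control (input) tags, which would follow the RNA level where the peak lies, passed the threshold in 0 of the 3 regions in edgeR's quasi-likelihood fit (adjusted p under 0.05), beside 2.18% of all regions (1.11% higher and 1.07% lower at 6 weeks), and in 0 at an unadjusted p under 0.05. DESeq2 and limma also called 0 of them, with 0 at an unadjusted p under 0.05; DESeq2 gave no adjusted p for Bdnf region 4. The log2 change from 2 to 6 weeks was 0.06 at Bdnf region 2 (SE 0.39, 95% interval -0.71 to 0.83, edgeR adjusted p = 0.964). At Bdnf region 4 it was -0.08 (-0.91 to 0.75, adjusted p = 0.957 in edgeR) and at Ntrk2 region 7 it was 0.51 (-0.27 to 1.29, adjusted p = 0.585). Each interval includes both a rise and a fall. In bulk tissue, fewer cells of a type and less RNA per cell cannot be told apart.

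These changes are relative to the typical region. The median region moved by -0.03 with TMM scaling and by -0.53 with total tags, and with total tags the changes were -0.44, -0.58 and -0.01 for Bdnf regions 2 and 4 and Ntrk2 region 7. Over all regions, 51 were higher and 49 lower with TMM, against 21 and 370 with total tags. The direction at Bdnf region 2 and at Ntrk2 region 7 thus depended on the scaling. In tags per 10 M, the control tags of Bdnf regions 2 and 4 summed to 68.9 and 60.01 in the 2-week libraries. In the 6-week libraries they summed to 55.7 and 35.0. This order depended on leaving out the middle region of the Bdnf cluster. With that region added and all peaks summed, the 2-week libraries had 102.7 and 92.7 control tags. The 6-week libraries had 121.6 and 54.6, so the ages overlapped. That sum counts both repeated peaks of 6-week replicate 1. For Ntrk2 region 7 the ages also overlapped.

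IP tags alone passed the threshold in 0 of the 3 regions, beside 1.09% of all regions in edgeR (0.852% higher and 0.24% lower), and in 0 at an unadjusted p under 0.05, as in DESeq2 and limma. The log2 change was 0.40 at Bdnf region 2 (SE 0.44, 95% interval -0.51 to 1.32, edgeR adjusted p = 0.685), -0.17 at Bdnf region 4 (-0.95 to 0.61) and 0.39 at Ntrk2 region 7 (-0.40 to 1.17), the last turning to -0.07 with total tags, where the median region moved by -0.37 instead of 0.03. The value at Bdnf region 2 was decided by which 6-week library was kept. It was 0.92 without 6-week replicate 2 (edgeR adjusted p = 0.0583, unadjusted p = 0.00998) and -0.42 without 6-week replicate 1 (adjusted p = 0.567), over a range of adjusted p of 0.0583 to 0.982 with 1 library left out.

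The 6-week replicates differed more at Bdnf regions 2 and 4 than at most regions, and this was shared by Ntrk2 region 9. The ratio of replicate 1 to replicate 2 in IP tags per 10 M was 3.92 at Bdnf region 2, above 96.4% of the 4577 regions, 2.52 at Bdnf region 4 and 1.09 at Ntrk2 region 7, beside a median of 1.54. In control tags the ratios were 1.73, 1.40 and 1.43, beside a median of 1.11. At 2 weeks the IP ratios were 1.04, 0.828 and 0.690, beside a median of 0.903. By the peak with the most tags, the 6-week IP ratio was 3.93 at Ntrk2 region 9, 4.23 at Bdnf region 3 and 1.76 at Ntrk2 region 8, beside a median of 1.58 over 10203 regions.

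Enrichment, the change of the IP to control ratio, passed the threshold in 0 of the 3 regions in edgeR. This compares with 0% of the tested regions (0 called among 4577, with 127 at an unadjusted p under 0.05). Regions without a peak in some list were left out beforehand, so the test could not show enrichment gained or lost there. By DESeq2 there were 0 calls and 28 regions with an unadjusted p under 0.05, and by limma 0 and 157. None of the 3 had an unadjusted p under 0.05 in edgeR, DESeq2 or limma. The log2 change was 0.29 at Bdnf region 2 (SE 0.44, 95% interval -0.60 to 1.17), -0.09 at Bdnf region 4 (SE 0.45, -1.015 to 0.83, turning to 0.02 with total tags) and -0.14 at Ntrk2 region 7 (SE 0.44, -1.03 to 0.75), each with an edgeR adjusted p of 0.999. Among the tested regions these changes stood at the 69.3, 40.7 and 37.1 percentiles. An increase of 1 on the log2 scale lay inside the interval of Bdnf region 2, and a drop of 1 on the log2 scale inside those of Bdnf region 4 and Ntrk2 region 7.

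**Figure D3:**
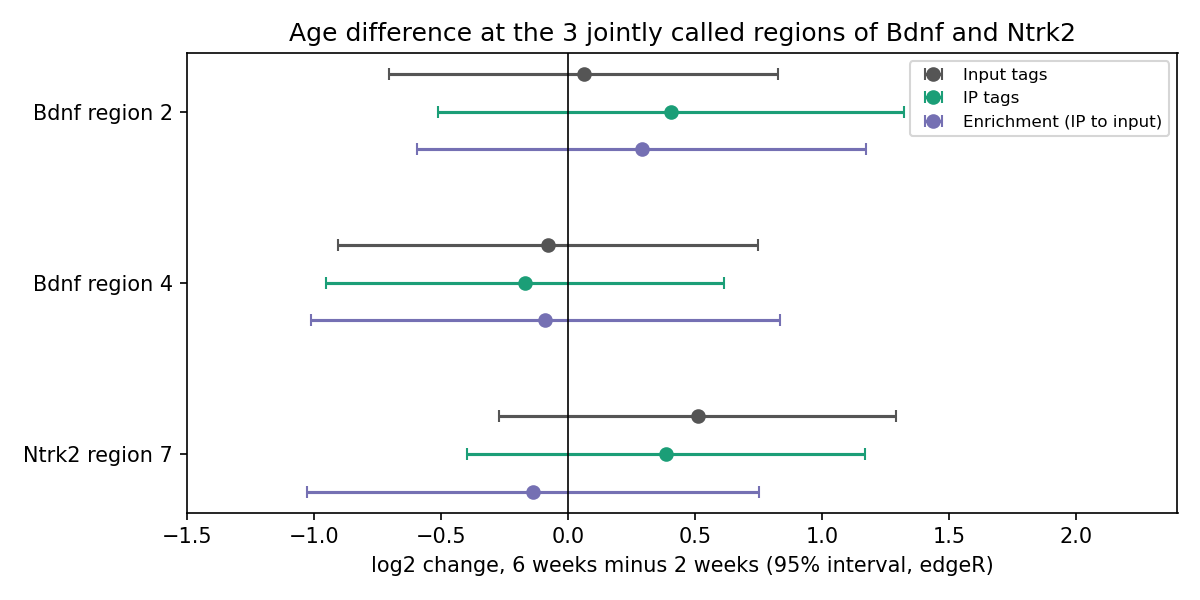
Fitted log2 change from 2 to 6 weeks (horizontal axis) in input tags, IP tags and enrichment at the 3 regions of Bdnf and Ntrk2 with exactly 1 peak in each list; points are edgeR estimates and bars their 95% intervals (2 libraries per age). All 9 intervals cross 0, and the largest estimate is the 0.51 of input tags at Ntrk2 region 7.

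When each list was represented by its peak with the most IP tags, 10203 regions could be tested and all 6 shared regions of both genes entered. This setting was chosen after the repeated starts had been seen. Again 0 of 6 passed in input, IP or enrichment, beside 0.696%, 0% and 0% of all regions, and 0 of 6 had an unadjusted p under 0.05. The log2 change in input was 0.78 at Ntrk2 region 9 (95% interval -0.01 to 1.57, edgeR adjusted p = 0.382), 0.44 at Bdnf region 3 and -0.33 at Ntrk2 region 8. A planned setting summed the tags of all peaks of a region instead, but its input fit also divided by their summed width. The input changes there, per peak width, were 0.34 (-0.38 to 1.07), 0.20 and -0.31 in the same order. A change in the plain sums of input tags was not fitted for these regions. By the peak with the most IP tags, enrichment changed by a log2 of 0.72 at Ntrk2 region 8 (-0.20 to 1.64), with an edgeR adjusted p of 0.999. The 6-week ratios were higher there. The enrichment change was -0.39 at Ntrk2 region 9 (-1.40 to 0.62) and -0.22 at Bdnf region 3 (-1.13 to 0.69).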

How the data were processed

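m6A peak lists of 4 hippocampal IP libraries were used, 2 per age. Per the submitters' processing notes the build was mm9 and the tools included HOMER, Cufflinks 2.2.1, TopHat2 2.1.1 and 2.0.13, and Bowtie2 2.2.3. Neither the caller's options nor the control library of each list is stated in those notes. Per the file headers, the lists are HOMER peaks called per library. The authors deposited IP tags as a count in 2-week replicate 1 and as a scaled signal in the others, and control tags scaled in the former and, in the others, as an estimated count in which 0.5 stands for none. The deposited fold ratio, p-value, score and the focus fraction of each peak are the authors' values; the last 2 were not used in results. Whole tags were recovered by dividing by the value of 1 tag (tolerance 0.2 tag), and the totals assume HOMER's scale of 10000000 tags. All peaks entering the main fits were 100 bp wide, so the offset for width in the input fit changed nothing there. Where all peaks of a region were summed, that offset used their summed width, so input was taken per peak width. The IP and enrichment fits had no such offset. Fits used edgeR 4.0.16 (TMM, quasi-likelihood, Benjamini-Hochberg over all regions), with DESeq2 1.42.0 and limma 3.58.1 as alternatives, in R 4.3.3 and Python 3.11.15. They were tried on simulated data, in which IP tags varied less between replicates than in these libraries. Other scalings, filters, peak choices, the replicate block and leaving out each library were tried. SEs and intervals were derived from the F statistic. The regions named were all those of both genes; the members and lists were chosen with earlier results of these data known. Marker and other BDNF-pathway genes were not analysed here, since no mm9 positions were used.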

Additional observations from a re-analysis of the deposited data

How the results depend on the processing

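No alternative brought a tested region of Bdnf or Ntrk2 (3 in most settings, 2 with starts within 20 bp, at most 6) past the threshold in input, IP or enrichment. Among 108 alternative values of the 3 tested regions, 94 kept their direction and 14 reversed. With total tags in place of TMM these were input at Bdnf region 2 (-0.44) and Ntrk2 region 7 (-0.0066), IP at Ntrk2 region 7 (-0.0704) and enrichment at Bdnf region 4 (0.0223). With 1 library left out, the ranges that crossed 0 were -0.29 to 0.33 (input, Bdnf region 2), -0.30 to 0.21 (input, Bdnf region 4), -0.42 to 0.92 (IP, Bdnf region 2), -0.57 to 0.14 (IP, Bdnf region 4), -0.15 to 0.62 (enrichment, Bdnf region 2), -0.43 to 0.18 (enrichment, Bdnf region 4) and -0.51 to 0.29 (enrichment, Ntrk2 region 7). The lone library of an age is then assumed to vary like the others.

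The deviations of same-numbered libraries of the ages correlated at 0.03 in IP and in control, so they were not taken as pairs. With the replicate block 0 of 3 passed in each test. Over all regions the block gave 50 higher and 49 lower in input (51 and 49 without it) and 112 and 78 in IP (39 and 11 without it).

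The log2 ratio of 6-week to 2-week tags per 10 M, summed over the jointly called regions, was -0.06 (IP) and -0.51 (control) for Bdnf and -0.07 and -0.03 for Ntrk2. With the tags of all peaks summed the control values were -0.15 and -0.39. Leaving out 1 library gave -1.21 to 0.58 and -0.88 to -0.21 for Bdnf, the lowest without 6-week replicate 1, and -0.31 to 0.22 and -0.31 to 0.21 for Ntrk2.

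At a fold of at least 8, which removes peaks by construction, 1 of 5 Bdnf and 0 of 6 Ntrk2 regions were called in every library, beside 2.77% of all regions. Leaving out 1 library gave 3 Bdnf and 3 to 4 Ntrk2 regions in every library, beside 17.7% to 21.8% of all regions. It gave 0 to 1 and 0 to 2 at the younger age alone (11.6% to 23.8% of all) and 0 to 1 and 1 to 2 at the older (3.68% to 21.1%); an age with 1 list left needs only that list. The other overlap and merging rules left 2 to 3 regions per gene in every library.

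Calls over all regions were less steady. Without 6-week replicate 1 or 2, input gave 85 and 61 higher and 72 and 46 lower, and IP gave 167 and 402 higher and 126 and 325 lower. Enrichment gave 0 calls except without 6-week replicate 2, where 2 regions, neither among the 3 named, were higher. Without either 2-week replicate input gave 0 calls in edgeR (285 and 372 at an unadjusted p under 0.05), and IP gave 3 higher each and 3 and 1 lower. DESeq2 called 24 higher and 15 lower in input and 60 and 44 in IP, and limma 68 and 40, and 17 and 4. At least 10 control tags gave 30 and 25, and 19 and 7; all peaks summed 28 and 21, and 0; starts within 20 bp 14 and 14, and 17 and 5. Total tags gave 0 in IP. The causes were not tested.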
